A study of Rattus norvegicus with 2 samples.

Results

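A small class of epithelial cells in the fetal rat colon carried messenger RNA for alpha-fetoprotein (Afp), retinol-binding protein 4 (Rbp4) and transthyretin (Ttr), proteins that the fetal liver and yolk sac secrete into plasma. The class held 87 barcodes of the maternal obesity library and 140 of the control library, 227 in all of 14115 kept barcodes (at least 500 genes and at most 20% mitochondrial counts) and of 18617 deposited ones. A barcode stands for 1 droplet, most often 1 cell. Each member had counts for at least 4 of 7 epithelial genes (Epcam, Cldn7, Cldn4, Cldn3, Elf3, Vil1, Lgals4), at most 3 counts of Col1a1 and Col3a1 together, and at least 2 counts of at least 2 of Afp, Rbp4 and Ttr. Barcodes with 5 or more counts per 10000 of Muc2 with Fcgbp, of the defensins Defa8, Defa9 and Defal1, or of Olfm4 were set aside. So were barcodes with counts in at least 3 of Mep1a, Mep1b, Otc, Enpep and Apoc2 (proximal-type), and those with counts of Shh, Mdk and either Tdh or Fscn1. The members were thus chosen by measured values of these genes, whose levels below are a description. Since every other gene was read in the same cells, the contrast with other epithelium is a description as well.

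The libraries came from wild-type rat fetuses at embryonic day E19.5, 1 of the maternal obesity group (replicate 2) and 1 of the control group (replicate 1), to ask how a mother's obesity alters the offspring's gut epithelium. Tissue was digested with enzymes and red cells were lysed; the strain, the number and sex of fetuses, the diet and the segment of colon are not stated in the labels. Droplet sequencing marked transcripts with unique molecular identifiers (UMIs), and the deposited values are raw UMI counts. With 1 library per group no test between groups can be made. Every difference is between 2 libraries, a gene is called when it lies past 1.5-fold, and intervals (95%) cover counting error only.

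Afp is the fetal counterpart of albumin and is shut down in liver after birth. Rbp4 carries retinol in plasma, bound to transthyretin, which also carries thyroxine. The gut epithelium arises from endoderm, as the liver does, and parts of the fetal gut are known to make such carriers before birth.

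Promoters of Afp and Rbp4 are shown because most members were chosen by this pair. The sequences are RefSeq's for the GRCr8 build, 300 bases around the annotated start, and both genes lie on the minus strand, which is written 5′ to 3′. Capitals mark matches to 3 motifs searched on both strands, GTTAAT (an HNF1-type core), TGTTTGC (a FOXA-type core) and the TATA box TATAAA. Afp lies at chr14:17875596-17875895 and Rbp4 at chr1:245313502-245313801.
Afp: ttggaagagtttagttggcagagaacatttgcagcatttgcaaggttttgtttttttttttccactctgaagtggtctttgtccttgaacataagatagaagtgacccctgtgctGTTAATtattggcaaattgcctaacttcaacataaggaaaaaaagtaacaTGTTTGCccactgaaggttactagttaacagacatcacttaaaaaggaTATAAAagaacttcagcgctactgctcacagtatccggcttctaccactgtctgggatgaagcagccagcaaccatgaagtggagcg
Rbp4: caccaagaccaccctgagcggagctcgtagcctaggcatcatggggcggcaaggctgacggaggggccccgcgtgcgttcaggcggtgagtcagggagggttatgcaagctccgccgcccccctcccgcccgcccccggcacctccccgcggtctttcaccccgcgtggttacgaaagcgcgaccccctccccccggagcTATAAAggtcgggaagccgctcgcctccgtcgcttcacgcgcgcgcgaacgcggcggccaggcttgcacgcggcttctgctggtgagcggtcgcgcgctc
The Afp promoter held GTTAAT 135, TGTTTGC 85 and TATAAA 37 bases before the start, and the Rbp4 promoter held TATAAA 50 bases before it. The same search found no match to these motifs in the promoters of Ttr (1 promoter), Apoe (3) and Hspb8 (1). Of 33469 rat promoters of the same length, 7.45% held GTTAAT, 4.88% TGTTTGC and 14.2% TATAAA. A match is a description of letters and shows no binding.

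The members were 5.45% of the 1597 epithelial barcodes in the maternal obesity library (interval 4.39 to 6.68) and 4.30% of 3258 in the control library (3.63 to 5.05). Of all kept barcodes they were 1.20% (0.964 to 1.48) in maternal obesity and 2.04% (1.71 to 2.40) in control, an order that goes with the epithelial share of each library, 22.1% in maternal obesity and 47.4% in control. Epithelial barcodes with enough carrier counts numbered 335 and 429, and the exclusions set aside 248 and 289 of them. The Shh and Mdk exclusion applied to 163 and 221 of these. Those set aside were deeper, with a median of 37035 UMIs in maternal obesity and 30986 in control, than the members, with 20756 and 17298. The part of depth in this exclusion was not tested. At the edge of the rule, 18 and 27 members had their second carrier at exactly 2 UMIs, and 32 and 75 barcodes lay just outside with 1 UMI. Member depth ran from 4183 to 63096 UMIs in maternal obesity and from 2127 to 49427 in control.

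Across the whole series, the libraries held 120811946 UMIs in 9714 barcodes and 103013814 UMIs in 8903 barcodes. Haemoglobin took 20.6% of UMIs in maternal obesity and 11.5% in control, and 1.60% and 0.381% within the members. The libraries shared 130 barcode sequences, 80 among kept barcodes, and no sequence was a member in both.

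The label was checked against markers of other cells. All 10 epithelial markers were present, at a summed 17123 UMIs per 1000000 of the class (CPM) in maternal obesity and 18429 CPM in control. The fetal liver's own product was missing: albumin (Alb) had 0 UMIs in the maternal obesity members and 1 UMI in control. Tat, of hepatocyte amino acid catabolism, and Sox17 and Soat2 of the yolk sac list were at 0 in both. In all, 8 of 13 hepatocyte markers in maternal obesity and 10 of 13 in control had any UMI, led by Ass1, Serpina1 and Hnf4a, which gut epithelium also expresses. Their sum was 863 CPM in maternal obesity members and 1081 CPM in control members, against 537 and 436 CPM in other epithelial barcodes. Of 12 yolk sac markers, Afp and Ttr among them, 10 had UMIs in both libraries, and they summed to 1463 and 1513 CPM in members, against 386 and 240 CPM in other epithelial barcodes. Fibroblast markers summed to 191 CPM in maternal obesity members and 305 CPM in control members, against 98.3 and 67.6 CPM in other epithelial barcodes and 8783 and 5481 CPM in fibroblast barcodes, with Lum and Mfap4 at 0 in both. Periostin (Postn) made up 303 of these 397 UMIs in maternal obesity and 647 of 818 in control. Tuft cell genes Pou2f3, Trpm5 and Il25 were at 0 in both libraries, and after thinning to 3000 UMIs 0 of 87 and 0 of 138 members had 2 tuft markers, which allows shares of up to 3.45% and 2.17% (3 counts) of barcodes with such UMIs at that depth and says nothing of cells whose tuft genes went unseen.

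A few members were hormone cells that met the rule. In 1 maternal obesity and 3 control barcodes at least 5 of 14 enteroendocrine markers had UMIs. The maternal obesity barcode had 1360 UMIs of the glucagon gene Gcg, 396 of Chgb and 243 of Chga, with 71 of Rbp4, 15 of Ttr and 0 of Afp. Of the control barcodes, 2 had Chga at 883 and 623 UMIs, Ttr at 40 and 115 UMIs and Tph1, of serotonin synthesis, at 71 and 15 UMIs. The control barcode that remains had 1294 UMIs of Gcg and 883 of Pyy. All 4 qualified by Rbp4 and Ttr with at most 1 UMI of Afp. They held nearly all hormone counts of the class: with them 5 of 11 enteroendocrine genes tested were called higher than in other epithelium, and without them 0 were higher and 10 lower. With all members, 7.64% of all genes tested were called higher in both libraries and 14.4% lower. Besides, 1 control barcode held 98.6% of the class's Cd74 UMIs, an antigen-presentation gene, and 2 maternal obesity barcodes, the hormone barcode among them, and 1 control barcode were over 1% haemoglobin.

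The carrier genes used for the choice stood at like levels in both libraries, except Ttr. Afp reached 999 CPM in maternal obesity members, against 156 CPM in other epithelial barcodes, and 916 CPM in control members, against 108 CPM in other epithelial barcodes. Per barcode, Afp had a lowest value of 0, a median of 6.72 and a highest of 73.7 UMIs per 10000 in maternal obesity and 0, 6.23 and 74.4 in control, so the libraries overlapped over their whole range. Rbp4 reached 924 CPM in maternal obesity and 1019 CPM in control, against 92.8 and 78.3 CPM in other epithelium, with medians per barcode of 4.82 and 6.83 UMIs per 10000. Ttr reached 105 CPM in maternal obesity and 203 CPM in control, against 27.2 and 16.7 CPM in other epithelium. The 2 control hormone barcodes with the most Ttr bear on that gap: without the 4 hormone barcodes the log2 ratio of maternal obesity to control was -0.58, against -0.95 with them.

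**Figure D1:**
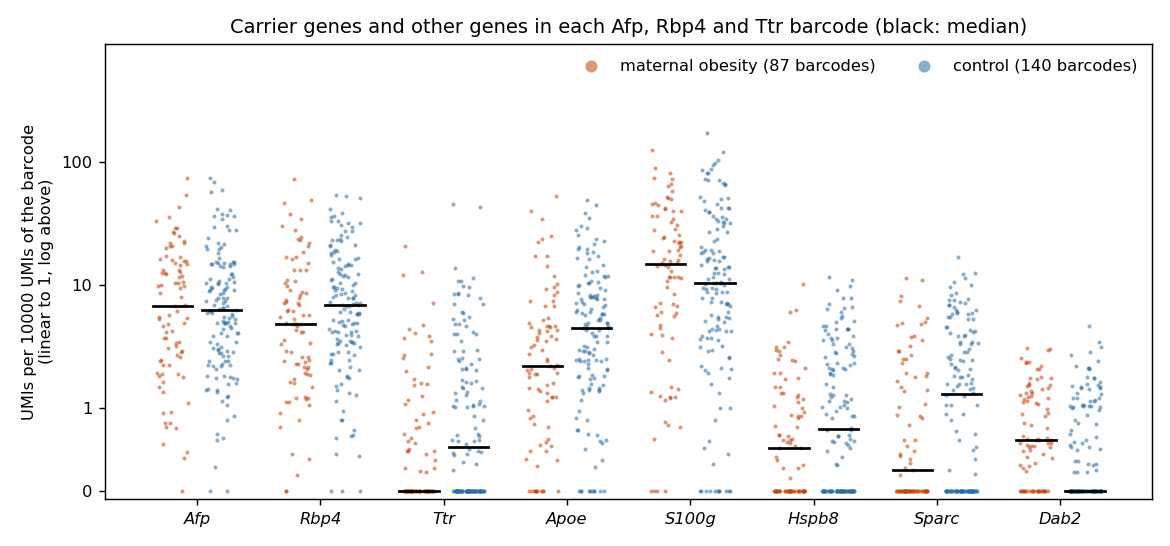
UMIs per 10000 UMIs of each member barcode (vertical axis, linear to 1 and logarithmic above) for 8 genes, with maternal obesity barcodes on the left and control barcodes on the right of each gene. Black lines are medians. Afp medians are 6.72 and 6.23, whereas the Ttr median is 0 in maternal obesity and 0.533 in control.

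Most members were Afp and Rbp4 barcodes, and a smaller share had all of the carriers. Of the maternal obesity members, 56 (64.4%) had Afp and Rbp4 only and 25 (28.7%) all of Afp, Rbp4 and Ttr at 2 UMIs or more. Of the control members these were 83 (59.3%) and 47 (33.6%). Afp and Ttr without Rbp4 was seen in 5 and 6 barcodes, and Rbp4 and Ttr without Afp in 1 and 4, of which 1 and 3 were the hormone barcodes.

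The rest of the fetal plasma set was higher only in part. Of 8 genes tested in that list, 5 were called higher than in other epithelium in both libraries, namely Afp, Rbp4 and Ttr, which the rule used, the protease inhibitor Serpina1 and the fibrinogen chain Fga. Over all 12638 genes tested, 7.64% were called higher in both libraries and 14.4% lower in both. Serpina1 stood at 220 CPM in maternal obesity members, against 109 CPM in other epithelium (2.02-fold, 1.83 to 2.23), and at 264 CPM in control members, against 87.6 CPM (3.02-fold, 2.78 to 3.26). Fga was scarce, at 16 and 15 UMIs. The vitamin D carrier Gc had 1 UMI in maternal obesity and 23 UMIs in control, of which 1 barcode held 82.6%. Of 8 hepatocyte genes tested 5 were higher in both and 1, Cps1, was lower. Of 10 yolk sac genes 5 were higher, Afp and Ttr among them, and 1, Soat2, was lower. Proximal-type barcodes were set aside from the members but stayed in the other epithelium. Their part in the lower calls of Cps1 and Soat2 was not tested.

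Among lipid carriers, Apoe and Apob were higher in both libraries, while most of the lipoprotein list was not. Apoe, which directs lipoprotein uptake, stood at 480 CPM in maternal obesity members, against 118 CPM in other epithelium (4.06-fold, 3.79 to 4.35), and at 571 CPM in control members, against 76.7 CPM (7.44-fold, 7.02 to 7.90). Apob, the structural protein of chylomicrons and very-low-density lipoprotein, was 3.79-fold higher in maternal obesity (53.5 CPM, against 14.1 CPM) and 8.55-fold in control (51.8 CPM, against 6.06 CPM). The member levels were close between libraries and the other epithelium differed, so the fold was larger in control. That other epithelium differed in make-up, with 511 proximal-type barcodes of 1510 in maternal obesity and 315 of 3118 in control. The part of this in the folds was not tested. Mttp, which loads lipid onto Apob, followed the same pattern, with 20.2 CPM in maternal obesity members against 18.7 CPM, and 16.03 CPM in control members against 4.34 CPM. Of 10 genes in the lipoprotein list, 3 were called higher in both (Apoa5, with 7 and 6 UMIs, is the other) and 0 lower. Over all genes these shares were 7.64% and 14.4%. Apoh, a phospholipid-binding plasma protein, was 5.05-fold higher in maternal obesity (66.9 CPM, against 13.3 CPM) and 4.92-fold in control (55.5 CPM, against 11.3 CPM).

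Several genes of fatty acid handling were also higher. Pdk4, which turns pyruvate away from the mitochondrion, was 6.48-fold higher in maternal obesity (4.50 to 9.17) and 6.49-fold in control (4.77 to 8.71). Of 18 genes of the list 5 were higher in both, among them Pdk4, Fabp5, Slc27a2 and the nuclear receptor Pparg, and 1, Fasn, was lower. Over all genes, 7.64% were called higher in both and 14.4% lower. Fabp1, the liver-type fatty acid binding protein, was nearly absent, at 9 UMIs in maternal obesity and 1 UMI in control. It was scarce in other epithelium as well, at 0.713 CPM in maternal obesity, against 4.33 CPM in members. In control it stood at 0.328 CPM in other epithelium, against 0.373 CPM in members.

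Genes of retinoid handling inside the cell were mostly not higher. Of 16 retinoid genes tested, 1 was higher in both, the retinol dehydrogenase Dhrs9, at 78.0 CPM in maternal obesity members, against 26.7 CPM in other epithelium, and 71.9 CPM in control members, against 17.6 CPM. The list had 4 lower, Crabp1, Crabp2, Rbp7 and Rdh10. Over all genes 7.64% were called higher and 14.4% lower in both libraries. Crabp2, a cellular retinoic acid binding protein, was 2.30-fold lower in maternal obesity (7.71 CPM, against 17.7 CPM) and 2.36-fold in control (19.01 CPM, against 44.9 CPM). Stra6, the cell's receptor for Rbp4, had 0 UMIs in maternal obesity and 1 UMI in control. In the thyroid hormone list 0 of 7 genes were higher in both and 1 was lower, Slc16a10, with 3 and 4 UMIs.

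S100g and Hspb8 were higher on average in these cells than in other epithelium. The rule did not use them, but they were listed as markers of the class with earlier results of these data known. S100g, the calcium-binding calbindin of absorptive gut cells, stood at 2175 CPM in maternal obesity members, against 550 CPM in other epithelium (3.96-fold, 3.83 to 4.09), and at 2154 CPM in control members, against 375 CPM (5.74-fold, 5.57 to 5.91). Per barcode its lowest, median and highest values were 0, 14.8 and 125 UMIs per 10000 in maternal obesity and 0, 10.3 and 172 in control. Other epithelial barcodes had S100g at 0, 1.80 and 113, and at 0, 0.345 and 202, so the ranges overlapped. In 71.6% and 52.4% of them S100g had a UMI, against 95.4% and 92.1% of members. The apical calcium channel Trpv6, known as the partner of S100g in uptake, had 0 UMIs in both libraries. Hspb8, a small heat shock protein of selective autophagy, stood at 92.0 CPM in maternal obesity members, against 9.17 CPM in other epithelium (10.0-fold, 8.38 to 11.97), and at 181 CPM in control members, against 17.3 CPM (10.4-fold, 9.33 to 11.7). It was seen in 58.6% and 61.4% of members. After thinning, 16.1% and 29.0% of members had an Hspb8 UMI, against 1.65% and 4.15% of other epithelial barcodes and 12% and 27.9% of fibroblast barcodes (median depth 9605 and 10126 UMIs), which express it too. The part of other cells' RNA in the members was not tested.

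Beyond those, the 12 highest genes by the naming rule included Krtap3-1, Sparc, Plau, Rgs17, Slc16a3, Pmp22, Adora2b and Igfbp2. Krtap3-1, a keratin-associated protein known from hair, stood at 181 CPM in maternal obesity members, against 26.8 CPM in other epithelium, and at 275 CPM in control members, against 26.9 CPM. Sparc, a secreted matrix-binding protein, stood at 148 CPM in maternal obesity members, against 23.4 CPM, and at 247 CPM in control members, against 38.4 CPM. After thinning, 23.0% and 34.8% of members had a Sparc UMI, against 4.56% and 6.59% of other epithelial barcodes and 98.5% and 99.0% of fibroblast barcodes. The adenosine receptor Adora2b was 4.18-fold higher in maternal obesity (3.82 to 4.56) and 5.12-fold in control (4.75 to 5.51). Plau, the urokinase that activates plasminogen, was 6.57-fold and 5.75-fold higher. Tac1, of tachykinin synthesis, met the naming rule too, but 1 hormone barcode held 95.8% of its UMIs in maternal obesity and 1 held 56.7% in control, and without the hormone barcodes it was lower than in other epithelium, at a log2 ratio of -1.20 and -1.85.

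Genes of endocytic uptake and lysosomes were higher as a group. Of 17 genes tested, 8 were higher in both libraries and 0 lower, beside 7.64% and 14.4% over all genes. The list medians were 0.67 log2 in maternal obesity and 0.80 in control, beside -0.13 and -0.09 over all genes. Dab2, an adaptor that takes receptors into coated pits, was 2.92-fold higher in maternal obesity (94.9 CPM, against 32.4 CPM) and 5.81-fold in control (52.9 CPM, against 9.10 CPM). Its receptor megalin (Lrp2) was 4.02-fold (2.45 to 6.34) and 2.24-fold higher (1.57 to 3.11). The cathepsins Ctsl (2.29-fold and 2.28-fold) and Ctsb (1.63-fold and 1.93-fold), the membrane proteins Lamp1 and Lamp2, the ceramidase Asah1 and the sialidase Neu1 were the others. Cubilin (Cubn), the usual partner of Amn in vitamin B12 and protein uptake, had 1 UMI in each library.

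Of 9 imprinted growth regulators, 3 were called higher in both libraries and 0 lower, beside 7.64% and 14.4% over all genes. Plagl1, a transcription factor of the imprinted network, stood at 58.3 CPM in maternal obesity members, against 13.6 CPM in other epithelium, and at 38.8 CPM in control members, against 10.9 CPM. Peg3 was 2.77-fold and 3.95-fold higher, and the cell cycle inhibitor Cdkn1c 2.78-fold and 2.95-fold. Plagl1 and Peg3 were not particular to the members. In Shh and Mdk barcodes of maternal obesity and control, Plagl1 stood at 44.2 and 30.4 CPM. Peg3 stood there at 294 and 194 CPM, against 271 and 262 CPM in members. In glycolysis 3 of 14 were higher, the glucose transporter Slc2a1, Pkm and the lactate exporter Slc16a3, which was 5.58-fold higher in maternal obesity and 4.85-fold in control. In oxidative phosphorylation 0 of 15 were higher and 6 lower, Atp5f1a at 387 CPM in maternal obesity members, against 857 CPM, and at 452 CPM in control members, against 864 CPM.

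The hindgut regulator Cdx2 was at or above the level of other epithelium. It stood at 264 CPM in maternal obesity members, against 226 CPM in other epithelium, and at 234 CPM in control members, against 173 CPM. Of 24 endoderm transcription factors tested, 2 were higher in both and 2 lower, beside 7.64% and 14.4% over all genes. The higher ones were Zbtb20 and Zhx2, known in mouse liver as repressors of Afp after birth. Both were scarce (15 and 16 UMIs of Zbtb20, 8 and 10 of Zhx2). Cdx1 and Sox9 were lower, Cdx1 at 14.5 CPM in maternal obesity members, against 52.6 CPM, and at 9.32 CPM in control members, against 30.5 CPM. Gata4, of proximal gut and liver, was at 0 in both.

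Stem and mucus genes were low, and colonocyte markers went both ways, with medians of -0.04 log2 in maternal obesity and 0.05 in control. Of 12 colonocyte markers 1 was higher in both, the water channel Aqp8 (2.28-fold and 6.25-fold), and 3 were lower, Guca2a, Guca2b and Krt20. Over all genes these shares were 7.64% and 14.4%. Without the hormone barcodes the colonocyte medians were -0.39 in maternal obesity and 0.02 in control, and Ceacam1 was called lower as well. Guca2a, the guanylin gene, was 2.01-fold lower in maternal obesity and 3.74-fold lower in control. Of 16 stem and Wnt genes 0 were higher and 10 lower, with Lgr5 at 2 UMIs in maternal obesity and 0 in control. All 14 goblet genes tested were lower, as the exclusion on Muc2 and Fcgbp favours, and Agr2 was 7.18-fold lower in maternal obesity and 11.2-fold in control, where 1 barcode held 42.8% of its UMIs. In the list of lowest genes, Scgb1a1, a secretoglobin, had 0 UMIs in maternal obesity, at least 54.6-fold lower than in other epithelium, and was 43.7-fold lower in control (10.4 CPM, against 456 CPM). S100a8, a calprotectin subunit, was at 0 in both, but it had UMIs in few other epithelial barcodes (0.662% in maternal obesity and 0.674% in control), too few to expect 1 among the members. Ccl3, at 0 in both, also had UMIs in few other epithelial barcodes (0.728% in maternal obesity and 1.28% in control). Retnlb, a goblet-made antimicrobial protein, had 4 and 5 UMIs, 46.9-fold and 110-fold lower. Sftpd, Best2, Mptx1, Ffar2 and Thbs4 had 0 UMIs in maternal obesity and at most 7 UMIs in control. The bound rests on 3 counts per class and library.

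Of 16 brush border genes 1 was higher in both, the fructose transporter Slc2a5, and 5 were lower, among them the peptidase Dpp4 at 15.4 CPM in maternal obesity members, against 131 CPM in other epithelium, and 17.5 CPM in control members, against 188 CPM. The rule set proximal-type barcodes aside by genes such as Mep1a and Enpep, but 511 and 315 of them stayed in the other epithelium. This favours lower brush border genes in members, and its part in the calls was not tested. Of 10 fetal-type epithelial genes 3 were higher, Clu and Vnn1 among them, and 1 was lower, Gja1. Of 13 basement membrane genes 2 were higher, the collagen chains Col4a1 and Col4a2, and 1 was lower. Of 11 integrin subunits 1 was higher, Itgb1, at 327 CPM in maternal obesity members, against 214 CPM, and at 343 CPM in control members, against 219 CPM, and 2 were lower, Itga2 and Itga6. Over all genes tested, 7.64% were called higher and 14.4% lower in both libraries. Calls of 1 or 2 genes in a list are therefore given as counts only. Interferon response genes had 4 higher and 2 lower of 11, small heat shock genes and chaperones 2 higher and 1 lower of 11, unfolded protein response genes 1 higher and 3 lower of 16, and immediate early genes 1 higher and 4 lower of 16.

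**Figure D2:**
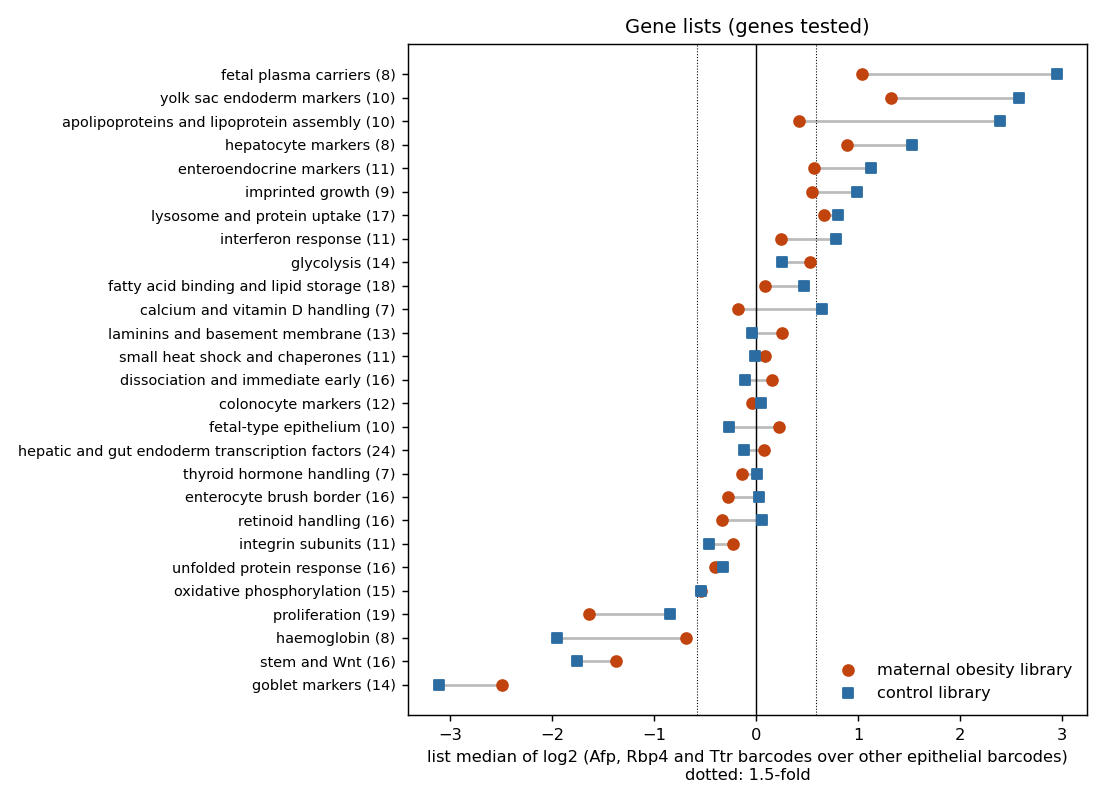
Median log2 ratio of the members over all other epithelial barcodes (horizontal axis) for 27 gene lists with at least 7 genes tested, with the number tested in brackets, in the maternal obesity library (circles) and the control library (squares); dotted lines mark 1.5-fold. Plasma carrier and yolk sac lists stand to the right, including genes of the rule, and goblet and stem lists to the left; the enteroendocrine medians rest on 4 hormone barcodes.

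Cell cycle genes were low in the members as chosen. Of 19 proliferation genes 0 were higher in both and 13 lower, beside 7.64% and 14.4% over all genes. The list medians were -1.64 log2 in maternal obesity and -0.85 in control. Mki67, a marker of cycling cells, stood at 39.97 CPM in maternal obesity members, against 244 CPM in other epithelium, and at 56.7 CPM in control members, against 184 CPM. The whole list summed to 1599 CPM in maternal obesity members, against 4196 CPM, and to 2389 CPM in control members, against 3400 CPM. Shh and Mdk barcodes, which the rule set aside, had a list sum of 4979 CPM in maternal obesity and 4977 CPM in control. With that exclusion not applied, the log2 ratio of the sum was -0.072 in maternal obesity and 0.34 in control, against -1.39 and -0.51. Proximal-type barcodes, also set aside, summed to 4493 CPM in maternal obesity and 4225 CPM in control. Why the members were low was not tested. After thinning to 3000 UMIs, 36.8% of maternal obesity members (26.7 to 47.8) and 55.1% of control members (46.4 to 63.5) had at least 3 proliferation genes, against 74.9% and 59.4% of other epithelial barcodes. Without thinning these were 93.1% and 91.4% of members.

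Epithelial barcodes with Shh and Mdk, 172 in maternal obesity and 256 in control, also held the carriers. Ttr stood at 105 CPM in maternal obesity members and 111 CPM in Shh and Mdk barcodes, and at 203 CPM in control members and 102 CPM in Shh and Mdk barcodes. In the Shh and Mdk barcodes of maternal obesity and control, Apoe stood at 421 and 341 CPM and Afp at 565 and 515 CPM. Rbp4 was lower there than in members, at 265 and 266 CPM, and so were S100g at 482 and 521 CPM, Hspb8 at 24.5 and 45.6 CPM and Sparc at 46.6 and 56.8 CPM. Proximal-type barcodes (511 and 315) had Ttr at 3.54 and 1.55 CPM and Afp at 59.1 and 87.8 CPM. Afp was spread through the epithelium: after thinning an Afp UMI was seen in 77.0% and 76.8% of members, 20.2% and 15.2% of all other epithelial barcodes, and 0.873% and 1.43% of fibroblast barcodes, where free RNA can give a count.

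**Figure D3:**
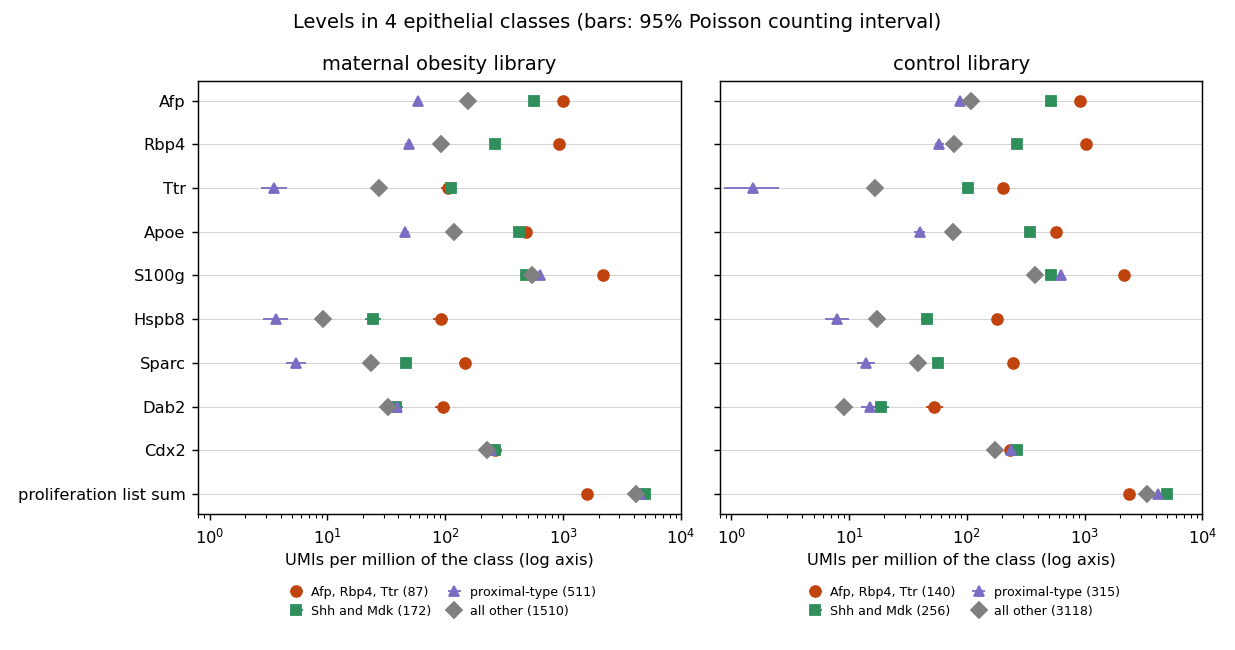
UMIs per 1000000 of each class (horizontal log axis) for 9 genes and the summed proliferation list in members, Shh and Mdk barcodes, proximal-type barcodes and all other epithelial barcodes, which include the 2 classes before; bars are Poisson counting intervals. Members and Shh and Mdk barcodes lie close for Ttr and Apoe in maternal obesity and apart for S100g, Hspb8 and Sparc in both libraries.

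Levels also varied within the class. Leaving out the hormone barcodes, Afp and Ttr had a Spearman correlation across barcodes of 0.52 in maternal obesity (n = 86) and 0.65 in control (n = 137), and Afp and Apoe 0.40 and 0.61. Rbp4 went with Sparc, at 0.34 and 0.54, and, like Afp, with Apoe, at 0.51 and 0.44. Afp and S100g were unrelated, at -0.04 and 0.06. These are descriptions: the members were chosen by counts of Afp, Rbp4 and Ttr, which shapes the correlations among these, barcodes of 1 library share its preparation, values per 10000 share their total, and Afp had -0.28 and -0.27 with depth. Levels by carrier combination are a description as well, since the combinations were set by the same counts. Barcodes with all of the carriers had Afp at 1995 CPM in maternal obesity and 1499 CPM in control, against 596 CPM in both with Afp and Rbp4 only. Rbp4 stood at 1534 and 1350 CPM, against 712 and 887 CPM. Apoe stood at 1012 CPM in maternal obesity barcodes with all of the carriers, against 272 CPM in those with Afp and Rbp4 only, and at 936 CPM, against 360 CPM, in control. S100g did not follow, at 2364 and 2259 CPM in maternal obesity and 2237 and 2287 CPM in control.

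**Figure D4:**
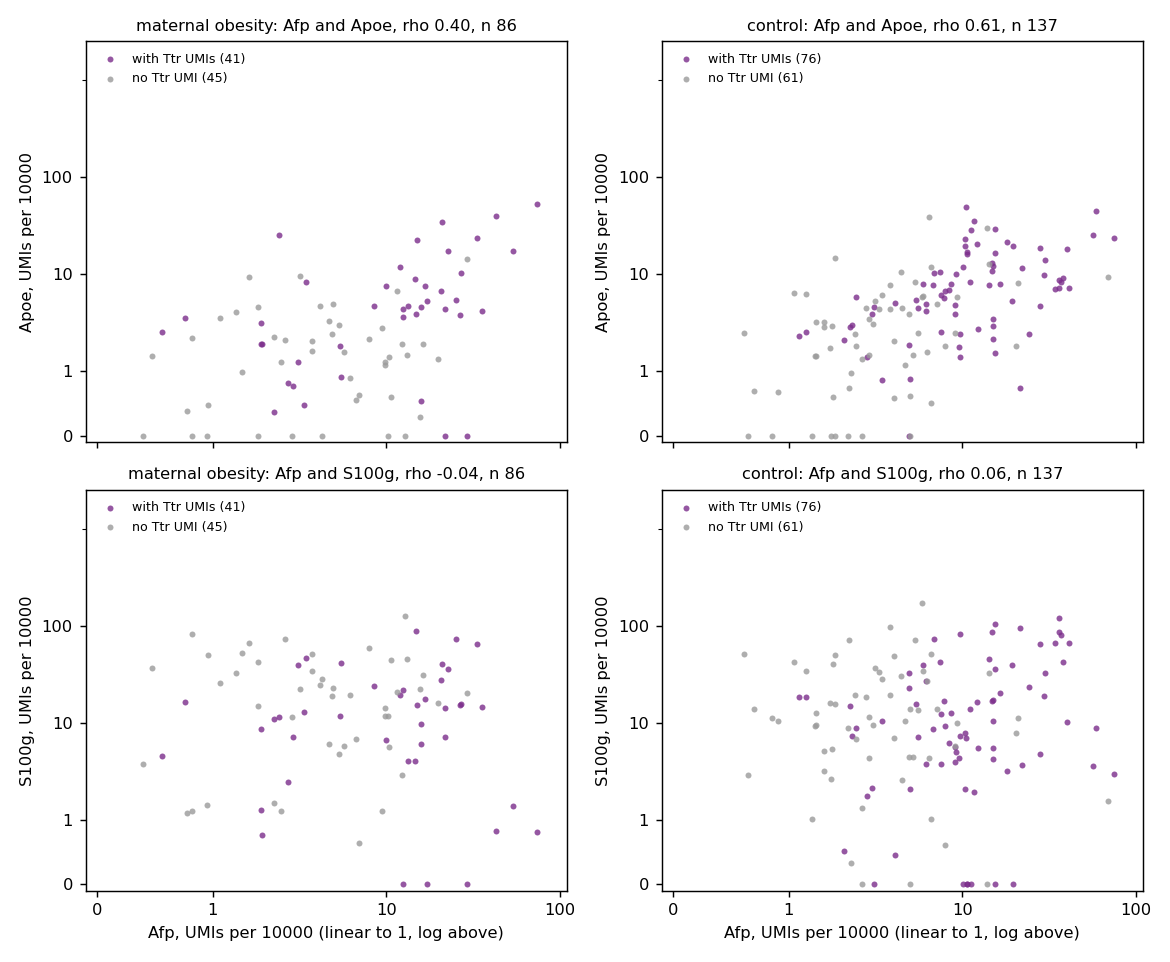
Afp (horizontal axis) with Apoe (upper row) and S100g (lower row) in UMIs per 10000 in each member barcode, without hormone barcodes, maternal obesity on the left and control on the right; purple points have a Ttr UMI. Apoe goes up with Afp (0.40 and 0.61) and S100g does not (-0.04 and 0.06).

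Between the libraries, most genes of the class were within 1.5-fold, with a median of -0.01 log2. Of 9198 genes tested in members, 1012 (11%) were called higher in maternal obesity and 926 (10.1%) lower. Of these, 294 and 145 were called in the same direction also in other epithelial barcodes, and 50 and 30 in the opposite one. The share of all 9198 genes called in other epithelial barcodes is not given. These overlaps thus cannot be read as more or fewer than that share would yield. The other epithelial barcodes also differed in make-up, with 511 proximal-type of 1510 in maternal obesity and 315 of 3118 in control. The part of cell make-up in their ratios between libraries was not tested. Log2 ratios of maternal obesity to control were 0.13 for Afp, -0.14 for Rbp4, -0.25 for Apoe and 0.01 for S100g, while Ttr (-0.95), Krtap3-1 (-0.60) and Plau (-1.17) lay past 1.5-fold. Without the hormone barcodes Ttr was still lower in maternal obesity but fell just short of 1.5-fold, and so was not called. Hspb8 was 1.97-fold lower in maternal obesity, as in other epithelium (log2 -0.97 in members, -0.92 in other epithelial barcodes), and Sparc 1.67-fold lower (-0.74 and -0.71). Igfbp2, an insulin-like growth factor binding protein, was 1.83-fold lower in members, 102 CPM in maternal obesity and 186 CPM in control, with a log2 ratio of -0.87 in members and -0.20 in other epithelial barcodes. That difference between classes was not tested.

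Akr1b8, an aldo-keto reductase that clears aldehydes, had the highest ratio of the 12 genes named as higher in maternal obesity. It stood at 263 CPM in maternal obesity members and 21.2 CPM in control members (12.4-fold, 9.43 to 16.6), with UMIs in 87.4% and 25.7% of them. In other epithelial barcodes it stood at 139 CPM in maternal obesity and 6.09 CPM in control, with a larger ratio there (log2 3.62 in members, 4.51 in other epithelial barcodes; the difference was not tested). Btf3, a factor for nascent proteins, was 2.09-fold higher (858 CPM in maternal obesity, 410 CPM in control), with log2 ratios of 1.07 in members and 1.04 in other epithelial barcodes. The small GTPase gene Rala (2.69-fold), the junction protein afadin (Afdn, 2.71-fold), the phosphatase subunit Ppp2ca (2.93-fold), the G protein subunit Gnb1 (2.46-fold), the repair methyltransferase Pcmt1 (4.87-fold), the zinc transporter Slc30a4 (3.10-fold), Ms4a8 (2.70-fold), the scaffold protein gene Mapk8ip3 (4.15-fold) and the brush border cadherin Cdhr2 (3.39-fold) were higher in maternal obesity as well. The zinc finger gene Zmym2 had 40 UMIs in maternal obesity and 10 in control (5.17-fold, 2.54 to 11.6).

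The genes lower in maternal obesity were led by Map7d2, a microtubule-associated protein, with 0 UMIs in maternal obesity and 70 in control, at least 18.1-fold lower. In other epithelium it had 0.221 CPM in maternal obesity and 11.1 CPM in control. Rcan1, a calcineurin inhibitor, was 3.96-fold lower (8.67 CPM in maternal obesity, 34.3 CPM in control), Serpinf2, the plasmin inhibitor made by liver, 3.54-fold, and Hmgb3 3.48-fold. Plau was 2.26-fold lower, at 52.5 CPM in maternal obesity and 118.5 CPM in control. The stress-response genes Chac1 (2.58-fold) and Ppp1r15a (2.04-fold) were lower, while of 16 unfolded protein response genes 0 were higher and 1 lower, with a median of -0.30 log2. Over all genes tested in members, 11% were called higher in maternal obesity and 10.1% lower. Fbxo10 (3.39-fold), Ifrd1 (2.08-fold), Igfbp4 (2.61-fold), Vtcn1 (3.05-fold) and Ddc, of amine synthesis (2.91-fold), complete the list. Serpinf2, Igfbp4 and Ddc turned to higher when the rule was applied after thinning to 3000 UMIs, at log2 ratios of 0.61, 0.35 and 0.42, and Slc30a4 and Cdhr2 then fell short of 1.5-fold, at 0.25 and 0.34. With the Shh and Mdk exclusion not applied, Ifrd1 was at -0.50, Serpinf2 at -0.18, Ddc at -0.059 and Igfbp4 at -0.035.

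**Figure D5:**
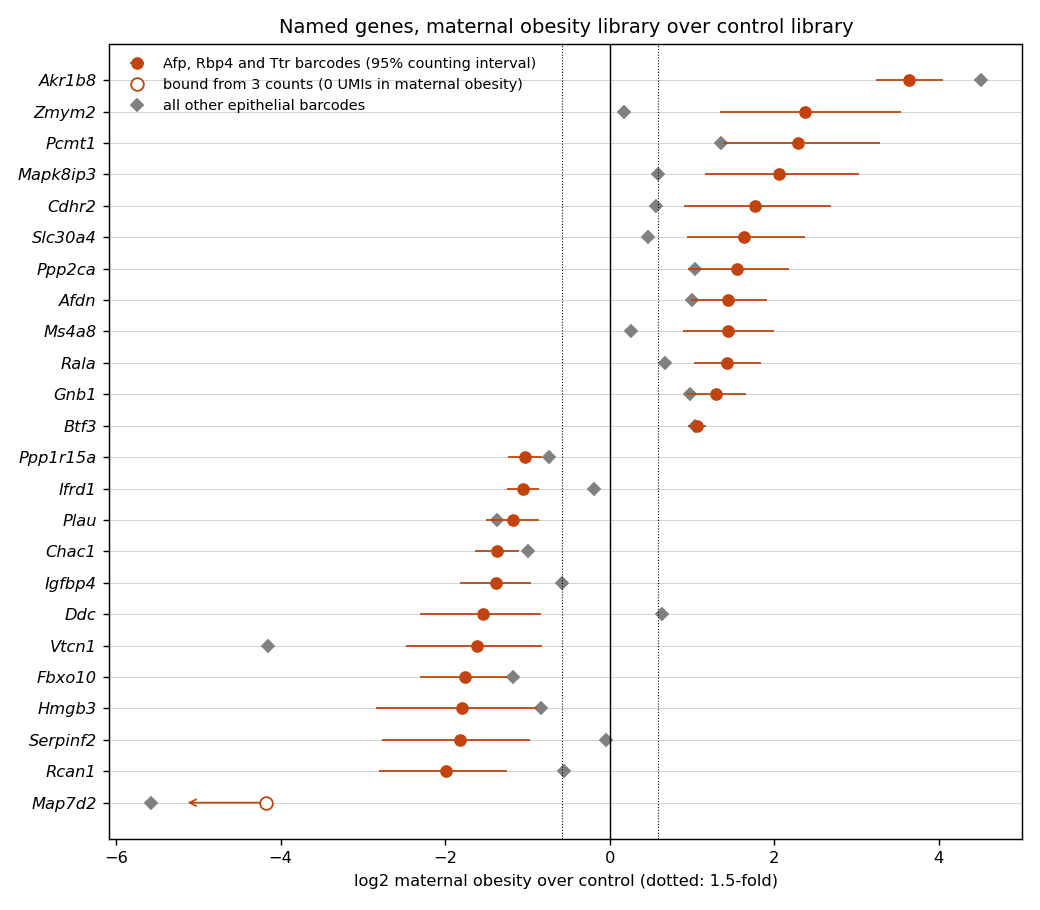
Log2 ratio of maternal obesity to control (horizontal axis) for the 24 named genes in the members (circles, with 95% counting intervals) and in all other epithelial barcodes (diamonds). Btf3 stands at 1.07 in members and 1.04 in other epithelial barcodes, whereas Ddc stands at -1.52 in members and 0.63 in other epithelial barcodes; Map7d2 is a bound.

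Of the 28 gene lists, 4 had a median past 1.5-fold between the libraries, beside -0.01 log2 over all genes. Over all genes tested in members, 11% were called higher in maternal obesity and 10.1% lower. Proliferation was at -0.64 in members and 0.37 in other epithelial barcodes, a difference that was not tested, with 10 of 19 genes lower in maternal obesity members and 0 higher. It was at 0.12 with the rule applied after thinning and at 0.0014 with the Shh and Mdk exclusion not applied. It was short of 1.5-fold also without Scrublet doublets (-0.53), with each barcode weighted alike (-0.54) and at 4 carrier UMIs (-0.57). Calcium and vitamin D handling was at 0.67 in members and 0.61 in other epithelial barcodes, with 3 of 6 higher, the vitamin D receptor Vdr (25 UMIs in maternal obesity, 9 in control), Cldn2 (23 and 13) and Cldn12 (14 and 9), and at 0.31 with the rule applied after thinning. Haemoglobin was at 2.17 in members, with all 5 genes higher, and at 0.68 in other epithelial barcodes; without the hormone barcodes it was at 0.81 in members over 4 genes, and 1 barcode held 52.3% of Hbb UMIs in maternal obesity and 1 held 97.7% in control. The enteroendocrine list was at -0.98 in members and 0.19 in other epithelial barcodes, and rests on the hormone barcodes. The apolipoprotein list was at -0.10, with Apoa1 and Apom lower and 0 of 6 higher, and the fatty acid list at -0.03 with 0 of 15 called either way. Lysosome genes (-0.10, 2 higher and 1 lower of 17) and integrin subunits (-0.07, Itga3 higher of 7) had medians near 0.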

How the data were processed

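Single-cell libraries of fetal rat colon were deposited by the authors as raw UMI counts per gene and barcode. Per the submitters' processing notes Cell Ranger 2.1.1 was used, per the file headers cellranger 6.1.2; the build is not given in the sources. The 30400 identifiers were summed to 28116 symbols. Of 479 listed symbols, 454 matched by symbol, 5 by RefSeq synonym (Muc2 among them) and 20 were not analysed here. Counts were summed over barcodes and given per 1000000 UMIs of the class. Ratios have exact conditional binomial intervals, shares Clopper-Pearson and counts Poisson intervals. Log2 values add 0.5 UMI. Genes needed 20 UMIs in both groups together. Doublets were not removed, and Scrublet (scanpy 1.11.5) called 1.85% of kept barcodes in maternal obesity and 0.872% in control, against 7.77% and 7.12% expected, as an alternative. Thinning drew 3000 UMIs per barcode and left out 2 control members.

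Against other epithelium, the 12 highest and 12 lowest genes by the smaller absolute log2 ratio of both libraries were named, among genes called in both with at least 100 UMIs in the higher group. Between libraries, the rule took 12 genes each way, those with the interval bound nearest 1 farthest from it, given 50 UMIs or more in all and at most 25% of the higher library's UMIs in 1 barcode. List genes called either way and the 3 highest could be named, and a few at or near 0 (Tat, Gata4, Stra6, Cubn, Fabp1 and the like) were chosen after their values were seen. Levels in other epithelium are not given for Alb, Tat, Gata4, Stra6 and Cubn. A few listed genes are not reported here. Members and lists were chosen with earlier results of these data known. Python 3.11.15, numpy 2.4.6, scipy 1.17.1 and pandas 2.3.3 were used.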

Additional observations from a re-analysis of the deposited data

Results flagged for a closer look

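Genes whose effect had opposite signs past 1.5-fold in the 2 libraries or classes stood out among those named. Zmym2 in members over other epithelial barcodes was at 0.84 log2 in the maternal obesity library and -1.31 in the control library, from 40 and 10 member UMIs. Ddc in members over other epithelial barcodes was at -0.61 log2 in maternal obesity and 1.55 in control. Ddc in maternal obesity over control was at -1.52 log2 in members and 0.63 in other epithelial barcodes, and 1 control barcode held 20.3% of its 79 control UMIs. Without the 4 hormone barcodes Ddc was at -0.80 log2 in maternal obesity and 0.93 in control against other epithelium, and at -1.09 between the libraries in members. None of these differences was tested, since each rests on 1 library per group.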

How the results depend on the processing

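No paired analysis was possible because the groups share no replicate number, and with 1 library per group none could be left out. Of the values recomputed, 847 of 864 for named genes and 349 of 367 for list medians kept their direction and side of 1.5-fold.

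The members' share of epithelial barcodes was 5.45% in maternal obesity and 4.30% in control. It was 1.57% and 1.44% when all 3 carriers were needed, 3.44% and 3.04% at 4 UMIs, and 4.10% and 3.58% with the rule applied after thinning. With the rule after thinning the proliferation sum against other epithelium was at -0.73 log2 in maternal obesity, the proliferation median between libraries at 0.12, Serpinf2 at 0.61, Igfbp4 at 0.35 and Ddc at 0.42. Against other epithelium Tac1 was then at -4.56 and -3.39, and at -1.55 and -4.83 when all 3 carriers were needed. At 4 UMIs the enteroendocrine median of maternal obesity over control in members was 0.98, reversed from -0.98. The cause of these moves was not tested.

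Past 2-fold, 411 genes were higher and 969 lower than in other epithelium, and 338 higher and 245 lower between libraries, against 966, 1825, 1012 and 926 past 1.5-fold. With a minimum of 1 UMI, 3126 genes were higher than in other epithelium, and 2703 higher and 2735 lower between libraries. With a minimum of 100 UMIs these last were 276 and 343.

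Without thinning, shares of members were 93.1% and 91.4% for at least 3 proliferation genes, 94.3% and 91.4% for at least 2 colonocyte markers, and 36.8% and 41.4% for at least 3 goblet markers, in maternal obesity and control. Thinned to 3000 UMIs the last 2 pairs were 56.3% and 50.7%, and 4.60% and 8.70%. Thinned to 6000 UMIs they were 60.0% and 74.4% for proliferation, 80.0% and 80.0% for colonocyte markers, and 16.8% in control for goblet markers.

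Alternatives chosen after seeing the data moved further values. Without the Shh and Mdk exclusion the shares were 13.0% and 9.88%, genes lower between libraries 471, the proliferation sum -0.072 in maternal obesity and 0.34 in control, and the proliferation median 0.0014. With 20 UMIs expected in the members, 411 genes were higher and 795 lower than in other epithelium. Without the hormone barcodes Tac1 was at -1.20 and -1.85, and without haemoglobin-rich and Cd74 barcodes as well at -1.16 and -1.80.

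Depth limits scarce genes. With 15 and 16 UMIs of Zbtb20 in members, the interval of its ratio to other epithelium ran from 1.17 to 3.66 in maternal obesity and from 1.06 to 3.18 in control. Scrublet called fewer doublets than its expected rate.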
